A study of Mus musculus with 10 samples.

Results

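Cluster 11 of the colonic cells was examined here, a group of 107 of the 25204 cells kept by the authors over 10 droplet-based single-cell RNA-sequencing libraries. Its members were the cells that the deposited annotation gives the number 11 and the class "other", and all of them came from the 2 colonic libraries. There were 49 of 1132 kept cells in the library of normal mice and 58 of 1933 in the library of mice given dextran sulfate sodium (DSS), a detergent that injures the colonic epithelium and is used to model colitis. Both libraries were made from colonic crypts of mice. The labels give the treatment, and not the number, age, sex or strain of these mice. The other 8 libraries were made from intestinal organoids, which are epithelial cultures, and held 0 cells of this cluster. With 1 library per condition there is no replicate check and no test between conditions. Intervals given below are exact 95% intervals that cover counting error only, and cells of a library are not replicates.

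The 2 libraries differed in more than their treatment. Xist, the RNA that coats the silenced X chromosome of female cells, had a UMI (unique molecular identifier, 1 per captured transcript molecule) in 978 of 1132 kept normal cells and in 3 of 1933 kept DSS cells. The Y-linked genes Ddx3y and Eif2s3y had UMIs in 0 of the normal cells and in 704 and 1051 of the DSS cells. The methods describe the colitis mice as female. Effects of DSS and of the sex of the mice cannot be told apart in any comparison below. Cells of cluster 11 shared 0 barcodes with the other library.

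T lymphocytes recognise antigen through a receptor that is held at the surface by the CD3 chains. Those that carry CD8, a co-receptor for MHC class I, kill target cells with granules of granzymes and perforin. In the gut many of them lie between the epithelial cells, as intraepithelial lymphocytes. Conventional CD8 T cells carry a heterodimer of the CD8 alpha and beta chains and an alpha-beta receptor. Other intraepithelial lymphocytes, with a gamma-delta or an alpha-beta receptor, carry a homodimer of the alpha chain and often share signalling adaptors and receptors with natural killer (NK) cells.

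Ptprc, the marker given with the cluster, was held by most of its cells, and its values are a description. Ptprc, which encodes the phosphatase CD45 of the surface of leukocytes (chr1:138062861-138175708, minus strand, mm10), had a UMI in 46 of 49 normal cells (93.9%, 83.1 to 98.7) and in 54 of 58 DSS cells (93.1%, 83.3 to 98.1). Its summed level was 693 CPM (counts per 1000000, here UMIs of the gene among all UMIs of the set of cells) in the normal and 864 CPM in the DSS library. Kept colonic cells outside the 6 clusters in which more than 50% of cells held Ptprc, called the outside cells here, had Ptprc in 1.31% and 2.08% of cells, a contrast that the definition of the outside cells fixes. The epithelial adhesion gene Epcam was held by 99% and 98.5% of those outside cells. Cluster 11 cells were shallow, with a median of 3159 UMIs in the normal and 3040 in the DSS library, against 21790 and 20950 in the outside cells.

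Markers of T cells, and of the CD8 lineage in particular, led the cluster. Cd3e and Cd3g, which encode 2 of the CD3 chains, had UMIs in 49 and 49 of 49 normal cells and in 56 and 55 of 58 DSS cells. Cd8a, the alpha chain of CD8, was held by 46 normal and 53 DSS cells (93.9% and 91.4%). Cd8b1, the beta chain, lies beside it on chromosome 6 (Cd8b1 chr6:71322788-71337494 and Cd8a chr6:71373427-71379173, both plus strand) and was held by 39 normal cells (79.6%, 65.7 to 89.8) and 35 DSS cells (60.3%, 46.6 to 73.0). Both chains were held together by 37 normal and 34 DSS cells. Trac, the constant part of the T cell receptor alpha chain, was held by 44 and 42 cells, and at least 1 of the near-identical beta constant genes Trbc1 and Trbc2 by all but 2 normal and 4 DSS cells. Reads of that pair cannot be assigned with confidence.

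Several defining genes of other leukocytes had UMIs in 0 or few cells. Cd4, the co-receptor of helper T cells, and Foxp3, the factor of regulatory T cells, each had a UMI in 0 of 107 cells, which by a floor of 3 cells allows a share of cells with a UMI of up to 2.80% (the exact interval reaches 3.39%). At these depths a cell without a UMI may still express either gene. Cd79a of B cells and Lyz2 of macrophages were also held by 0 of 107 cells. Ncr1, a receptor of NK cells, was held by 0 normal and 2 DSS cells. None of the members of the B cell (14), macrophage (15), neutrophil (13), and mast cell and basophil (11) lists reached 20 UMIs over both libraries. The fibroblast, endothelial, smooth muscle and eosinophil lists had 0 UMIs. Other lists were present through some of their members. The gamma-delta T cell list had UMIs in 37 normal and 46 DSS cells, at 1013 and 1237 summed CPM, from Trdc, the near-identical genes Tcrg-C1 and Tcrg-C2, and Tcrg-C4. Of the list for CD4 helper and regulatory T cells, which had UMIs in 28 and 43 cells, Ctla4, Ikzf2 and Icos were held by at least 20% of cells in either library, and these genes are also expressed by activated CD8 T cells. Over both libraries, Ikzf2 was 6.04-fold higher (3.36 to 11.4) in the cells of the cluster without a Cd8b1 UMI than in those with one. Ctla4 was lower in them, with a ratio of 0.346 (0.201 to 0.565). The list for NK cells and ILC1 had UMIs in 26 and 29 cells, led by Tbx21, a transcription factor of cytotoxic lymphocytes as well. The monocyte list had UMIs in 34 and 36 cells, of which Plac8 gave 96 and 90 UMIs, and the plasmacytoid dendritic cell list in 24 and 36 cells, led by the interferon-induced genes Bst2 and Irf7. The list for ILC2 and ILC3 had UMIs in 29 and 31 cells. The plasma cell list had them in 15 and 34 cells and the conventional dendritic cell list in 5 and 12. Of the T cell list, 15 of 15 members were held by at least 20% of cells in either library, as were 13 of 14 of the list for CD8 and cytotoxic lymphocytes. By these markers cluster 11 is called CD8 T cell-like, a name that covers cells of more than 1 kind. In the 10 normal and 16 DSS cells that meet the methods' filter of 1500 genes, Cd8b1 was held by 60.0% and 37.5% and Fcer1g, an adaptor of NK receptors, by 40.0% and 62.5%, against 10.2% and 31% of all cells of the cluster.

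**Figure D1:**
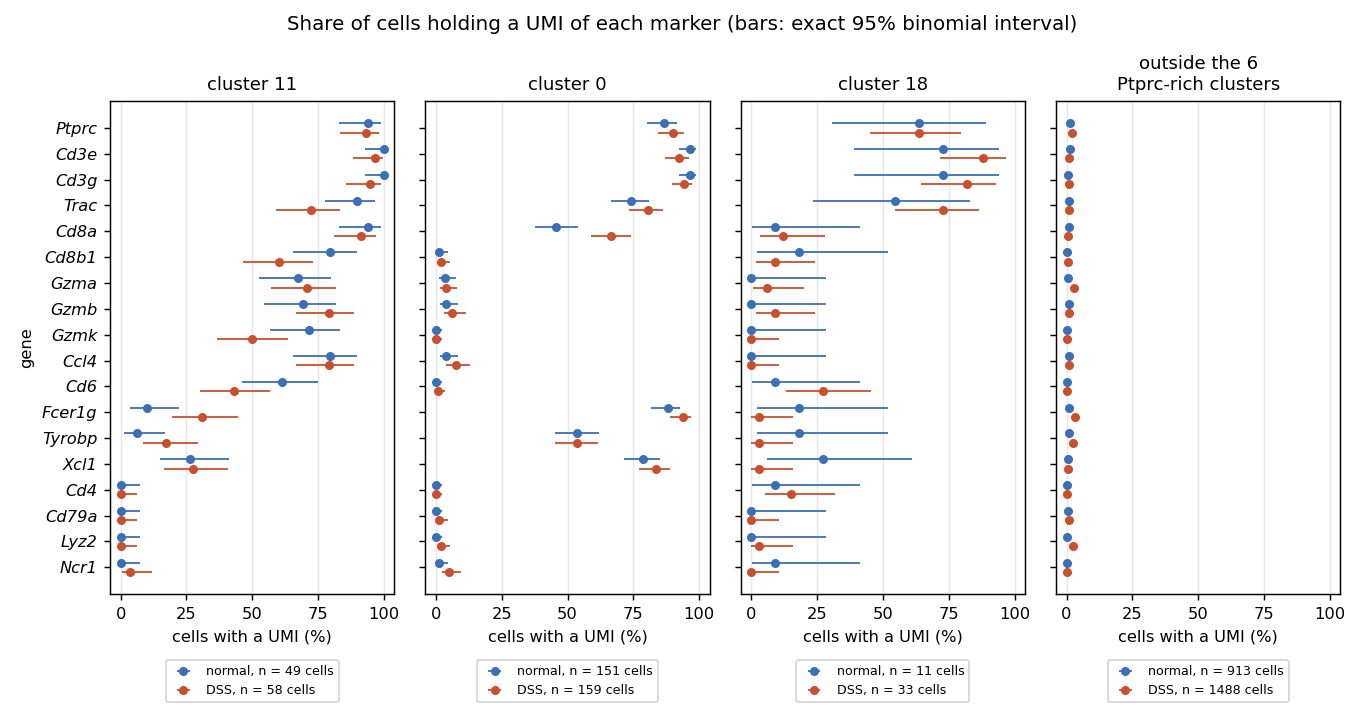
Share of cells with at least 1 UMI (x axis, percent) for 18 genes in cluster 11, cluster 0, cluster 18 and the colonic cells outside the Ptprc-rich clusters. Blue points stand for the normal and red points for the DSS library, with exact 95% binomial intervals as bars, and in cluster 11 Cd8b1 was held by 79.6% and 60.3% of cells, against 1.32% and 1.89% in cluster 0.

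The genes that set cluster 11 furthest above the outside cells came largely from the lists of T cells and of CD8 and cytotoxic lymphocytes. The 15 with the highest ratios in both libraries were Ccl5, Gzma, Gzmb, Cd3g, Cd3e, Nkg7, Cd52, Trbc2, Srgn, Cd8a, Rgs1, Cd7, Ccl4, Ctsw and Cd3d, of which 4 belong to the T cell list and 7 to the cytotoxic list. The clusters were made from these genes, so the ranking is a description. Ccl5, a chemokine that draws T cells and monocytes (chr11:83525778-83530518, minus strand), stood at 36961 CPM in the normal and 28584 CPM in the DSS library, and at 16.7 and 4.17 CPM in the outside cells. It was held by 107 of 107 cells, with a lowest, median and highest count per cell of 27, 102 and 468 UMIs in the normal and 3, 82.5 and 279 UMIs in the DSS library. Srgn, the proteoglycan core that packs granule proteins, was likewise held by all 107 cells, at 3247 and 3322 CPM. Of 1493 genes held by at least 25% of cluster 11 cells, 252 (16.9%) were at least 4-fold above the outside cells in both libraries.

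Cluster 11 differed from cluster 0, the largest of the Ptprc-rich clusters (151 normal and 159 DSS cells), in the granzymes and in the beta chain of CD8. CD3 levels were alike, with Cd3e at 2240 and 1961 CPM in cluster 11 and 2176 and 1933 CPM in cluster 0. Gzma, a serine protease of cytotoxic granules (chr13:113093825-113100981, minus strand), stood at 7200 CPM in the normal and 10111 CPM in the DSS cells of cluster 11, against 118 and 41.1 CPM in cluster 0. Gzmb, the granzyme that activates caspases in target cells (chr14:56258838-56262260, minus strand), stood at 2394 and 2890 CPM against 37.5 and 38.0 CPM. Gzmk (chr13:113171608-113225908, minus strand), a granzyme that lies next to Gzma in position and is common in effector memory CD8 T cells, stood at 593 and 335 CPM, and 0 UMIs were found in cluster 0. Against a floor of 3 UMIs per cluster and library, Gzmk was at least 111-fold higher in cluster 11 in the normal and at least 73.4-fold higher in the DSS library.

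The beta chain of CD8 followed the granzymes. Cd8b1 stood at 782 and 600 CPM in cluster 11 and at 3.57 and 4.56 CPM in cluster 0, where 2 of 151 and 3 of 159 cells held it. Cd8a was present in both clusters, at 1458 and 1286 CPM in cluster 11 and at 436 and 706 CPM in cluster 0. Of all kept colonic cells with a Cd8b1 UMI, cluster 11 held 39 of 46 (84.8%) in the normal and 35 of 50 (70.0%) in the DSS library. After each cell was thinned to 2000 UMIs, which left out 2 normal and 5 DSS cells of cluster 11, Cd8b1 was held by 76.6% and 56.6% of cluster 11 cells and by 1.40% and 0.65% of cluster 0 cells. In the outside cells it was held by 0.22% and 0.54% before and by 0% after thinning.

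Of the same 1493 genes, 16 (1.07%) were at least 4-fold higher in cluster 11 than in cluster 0 in both libraries. The 10 with the highest ratios were Gzma, Gzmb, Cd8b1, Gzmk, Cd6, Ccl4, Cd5, Gm8369, Actn2 and Ifng. Cd5 and Cd6 encode related scavenger-type receptors that tune T cell receptor signals in conventional T cells. Cd6 was at 391 and 227 CPM in cluster 11 and at 0 and 1.52 CPM in cluster 0. Cd5 was at 231 and 124 CPM against 1.79 and 3.04 CPM. Ccl4, a chemokine of activated cytotoxic cells, was at 1547 and 1194 CPM against 21.4 and 95.8 CPM, and Ifng, the type II interferon, at 812 and 416 CPM against 33.9 and 42.6 CPM. Actn2, an actin cross-linker best known from muscle, was at 267 and 308 CPM against 16.1 and 22.8 CPM. Gm8369, a gene model on chromosome 19 (chr19:11485938-11512577, plus strand), was at 207 and 151 CPM against 3.57 and 6.08 CPM. Lat, the membrane scaffold of T cell receptor signalling, was at 942 and 681 CPM against 127 and 137 CPM.

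Genes that stood lower in cluster 11 than in cluster 0 included a chemokine, receptors, inhibitors of signalling and transcription factors. Of 1748 genes held by at least 25% of cluster 0 cells, 6 (0.343%) were at least 4-fold lower in both libraries. The 10 with the lowest ratios were Ighm, Socs3, Kit, Cables1, Spry2, Xcl1, Ikzf2, Id3, Gem and Klrb1a. Xcl1, a chemokine that attracts cross-presenting dendritic cells, was at 130 and 335 CPM in cluster 11 and at 1472 and 1424 CPM in cluster 0. Ikzf2, which encodes the zinc finger protein Helios, was at 160 and 194 CPM against 820 and 770 CPM. Spry2, an inhibitor of receptor tyrosine kinase signals, was at 11.8 and 54.0 CPM against 404 and 268 CPM. Kit, a receptor tyrosine kinase, had 1 and 2 UMIs in cluster 11, and stood at 113 and 105 CPM in cluster 0. Fcer1g, a signalling adaptor shared by Fc and NK receptors (chr1:171229572-171234365, minus strand), was at 314 and 1010 CPM in cluster 11 and at 1806 and 2268 CPM in cluster 0.

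**Figure D2:**
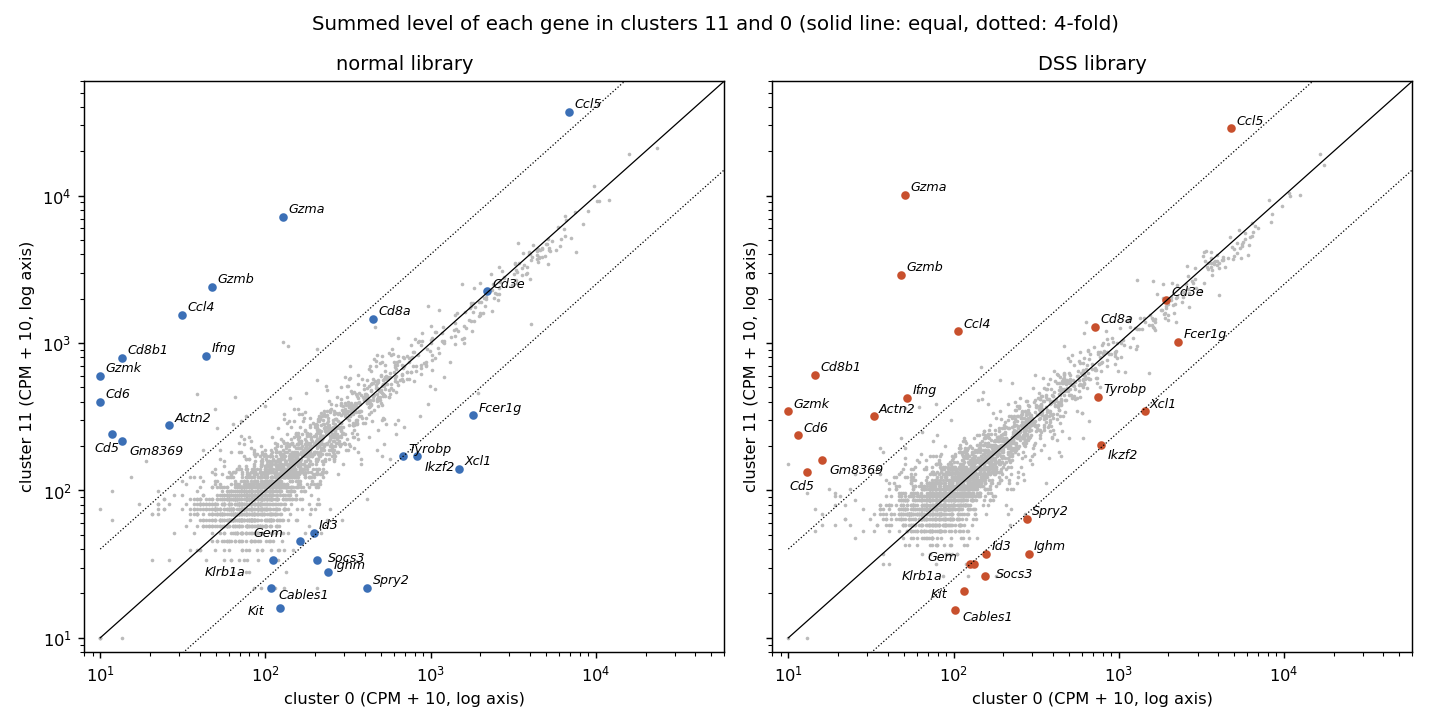
Summed level of each gene in cluster 0 (x axis) and cluster 11 (y axis) as CPM plus 10 on log axes, for the normal (left) and the DSS library (right). Each grey point is a gene, named genes are coloured, the solid line marks equal and the dotted lines 4-fold different levels, and Gzma, Gzmb, Gzmk, Cd8b1, Ccl4, Cd5 and Cd6 lay above the upper dotted line in both panels.

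Granzyme content was uneven from cell to cell. Gzma per cell ranged from 0 over a median of 11 to 168 UMIs in the normal library and from 0 over 17.5 to 163 UMIs in the DSS library. The 5 normal and 6 DSS cells with the most Gzma held 51.6% and 42.6% of all Gzma UMIs of the cluster. Gzmb ranged from 0 over 3 to 61 UMIs and from 0 over 7 to 54 UMIs. Gzmk stayed low, from 0 over 2 to 7 UMIs and from 0 over 0.5 to 8 UMIs. The libraries overlapped over nearly all of these ranges. All 3 granzymes were held by 24 normal and 22 DSS cells (49% and 37.9%), and none of them by 6 and 6 cells. Perforin (Prf1), which opens the target membrane, was held by 9 and 7 cells. The proliferation gene Mki67 had UMIs in 2 and 1 cells and the topoisomerase gene Top2a in 4 and 3 cells. The mitosis list had UMIs in 11 and 10 cells. The DNA synthesis list had UMIs in 47 and 45 cells, at 942 and 632 summed CPM against 460 and 272 CPM in the outside cells, led by the histone mRNA-binding gene Slbp and the replication clamp gene Pcna.

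The cluster was not uniform, and the cells with and without a Cd8b1 UMI differed in other genes. No Cd8b1 UMI was found in 10 normal and 23 DSS cells, and these had similar depth to the 74 cells with one (medians of 3221 and 3031 UMIs over both libraries). A missing UMI does not show that a cell lacks the transcript. The genes compared between these cells were chosen after their values were seen. Trdc, the constant part of the T cell receptor delta chain, was held by 4 normal and 10 DSS cells, and 0 of these 14 cells held Cd8b1. Fcer1g had 238 UMIs in the cells without and 2 UMIs in the cells with Cd8b1, a ratio of CPM of 245 (67.0 to 2032). Tyrobp, which encodes the adaptor DAP12 of NK receptors, had 105 UMIs without and 0 UMIs with Cd8b1, and Trdc had 99 and 0. Against a floor of 3 UMIs these are at least 72.0-fold and at least 67.8-fold higher.

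Over both libraries Klrd1 and Gzma stood higher in the cells without Cd8b1, and Cd6, Cd5, Cd28, Lat and Ifng stood lower in them. Klrd1, which encodes CD94 of the NK receptors, was 5.54-fold higher (3.92 to 7.95) in the cells without Cd8b1. Gzma was at 16450 CPM without and 4965 CPM with Cd8b1, a ratio of 3.31 (3.08 to 3.57). The Gzma ratio was 3.85 in the normal and 2.88 in the DSS library taken alone. It rested largely on the cells with Trdc, which stood at 24920 CPM of Gzma and of which 13 of 14 held Fcer1g. In the normal library, 4 cells with Trdc gave 560 of the 623 Gzma UMIs, and the 6 cells with neither Cd8b1 nor Trdc stood at 4007 CPM, against 4467 CPM in the cells with Cd8b1. These 6 cells had 0 UMIs of Fcer1g and of Tyrobp. In the DSS library, the 13 cells with neither gene stood at 10464 CPM of Gzma, against 5590 CPM with Cd8b1, and 8 of the 13 held Fcer1g. Cd6 was lower in the cells without Cd8b1, with a ratio of 0.210 (0.098 to 0.402). Over both libraries the ratios were 0.262 for Cd5, 0.291 for Cd28, 0.427 for Lat and 0.416 for Ifng. For some genes the libraries differed. Cd6 was at 0.578 (0.252 to 1.18) in the normal and 0.032 (0.001 to 0.191) in the DSS library. Cd5 was at 0.538 (0.164 to 1.38) and 0.126 (0.014 to 0.517), and Ifng at 0.288 (0.135 to 0.548) and 0.676 (0.405 to 1.10). Cd8a was at like levels, with a ratio of 0.95 (0.779 to 1.15).

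**Figure D3:**
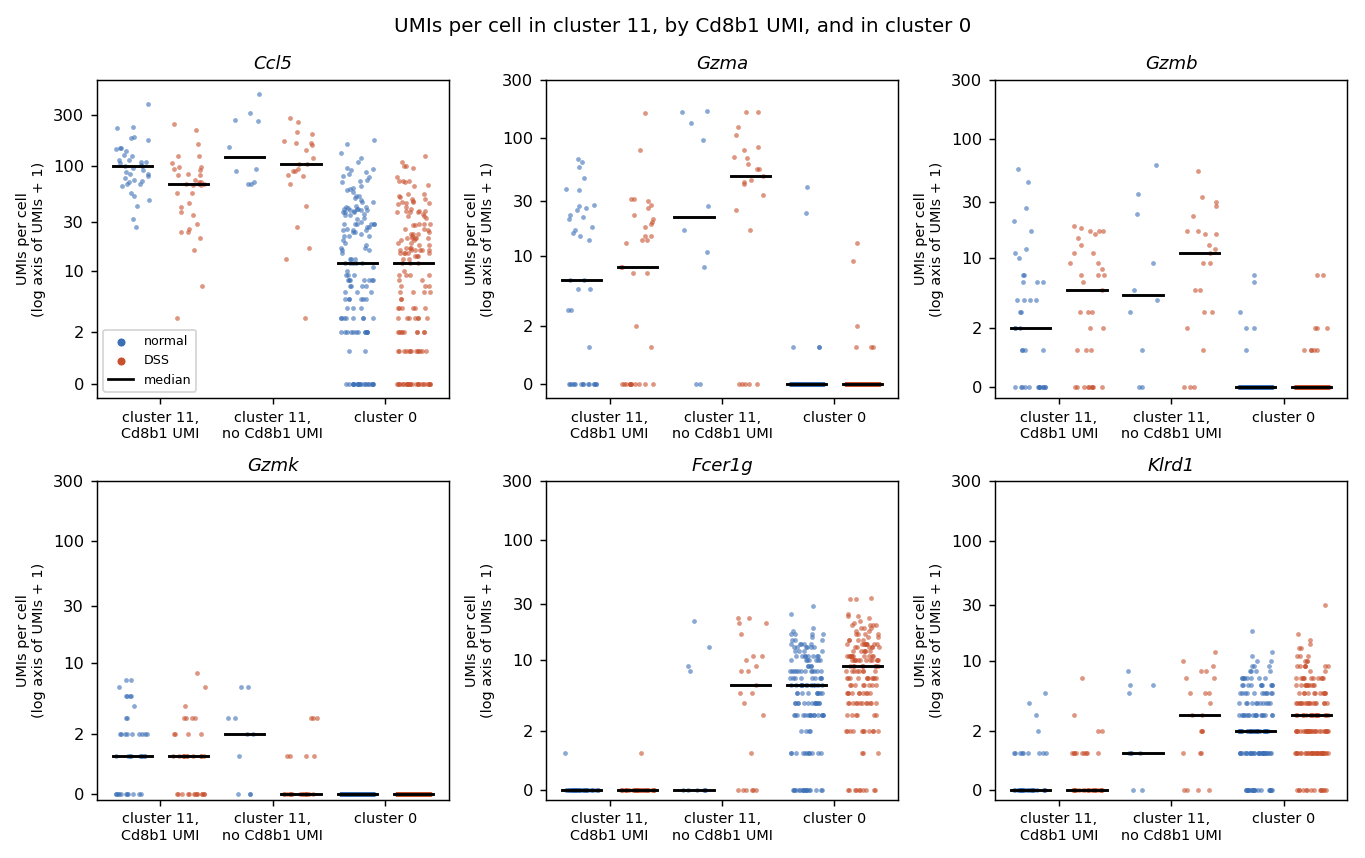
UMIs per cell plus 1 (log axis) of Ccl5, Gzma, Gzmb, Gzmk, Fcer1g and Klrd1 in the normal and DSS cells of cluster 11 with a Cd8b1 UMI (39 and 35 cells), without one (10 and 23 cells) and in cluster 0 (151 and 159 cells). Each point is a cell and each black line a median, and Fcer1g was found in 2 of the 74 cells with Cd8b1 and in 21 of the 33 cells without it.

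In the comparison of DSS with normal mice, the first quantity is the number of cells. Cluster 11 took 4.33% (3.22 to 5.68) of kept cells in the normal and 3.0% (2.29 to 3.86) in the DSS library. With the methods' filter of 1500 genes the shares were 1.19% of 841 and 1.14% of 1400 passing cells. Without the cluster 11 cells holding Epcam they were 3.48% and 1.52%. It took 49 of 219 (22.4%, 17.0 to 28.5) and 58 of 445 (13%, 10.0 to 16.5) of the cells of the 6 Ptprc-rich clusters. Of these clusters, 15 held 0 normal and 66 DSS cells, cluster 8 held 7 and 109 and cluster 21 held 1 and 20. Set against clusters 0 and 18 alone, it took 23.2% (17.7 to 29.5) and 23.2% (18.1 to 28.9). That choice leaves out clusters 8, 15 and 21, which held mostly DSS cells, so the equal shares depend on it. In cluster 18, Ptprc was held by 63.6% of cells. Crypts were isolated, not leukocytes, so the shares depend on how many lymphocytes came with the epithelium.

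Most genes of cluster 11 stood at similar levels in the 2 libraries. A ratio of at least 2-fold on CPM with 10 CPM added, among the 2374 genes with at least 20 UMIs over both libraries, was used as the limit. By it, 90 genes (3.79%) were higher and 53 genes (2.23%) lower in DSS, 143 genes in all (6.02%), and the median log2 ratio was -0.01. Counting error alone can take genes with few UMIs past this limit. Of the 1455 genes that stood higher in cluster 11 than in the outside cells in both libraries, 27 were higher and 30 lower in DSS (3.92%). Among the other 919 genes, 63 were higher and 23 lower (9.36%). This grouping used the same levels as the ratio, so the 2 shares are a description. A gene without UMIs in the normal or the DSS cells could not be among the 1455. The groups were not matched for UMIs.

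Epithelial transcripts were among the genes with the largest ratios of DSS over normal. Reg3b, an antimicrobial lectin secreted by the epithelium, had 4 UMIs in the normal and 112 UMIs in the DSS cells, at 23.7 and 605 CPM. Lypd8, a bacteria-binding protein of colonocytes, was at 237 and 1204 CPM, and the keratin gene Krt8 at 166 and 540 CPM. Spink4, Muc13, Zg16, Lgals4, Pigr and 1810065E05Rik were also among the 12 largest ratios. These transcripts were higher in DSS in cluster 0 too, with Krt8 at 202 and 461 CPM there. In cluster 18, with 11 normal and 33 DSS cells, the list of antimicrobial and goblet products was also higher in DSS, at 653 and 2420 summed CPM, and Reg3b was held by 0 and 26 cells, while the sum of the pan-epithelial list stood at 1716 and 1596 CPM. Of the pan-epithelial list, 4 of the 5 tested members were at least 2-fold higher, beside 3.79% of all tested genes, and its median log2 ratio was 1.64, against 1.15 in cluster 0 and -0.04 in the outside cells. Summed over its 12 members, it stood at 705 CPM in the normal and 2301 CPM in the DSS cells of cluster 11, which is 2.61% and 8.92% of its level in the outside cells. Per cell it ranged from 0 over 2 to 8 UMIs and from 2 over 7 to 43 UMIs. Epcam was held by 10 normal and 29 DSS cells. Whether these UMIs are free RNA in the droplets was not tested. A doublet caller marked 6 normal and 7 DSS cells, of which 0 were in cluster 11.

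**Figure D4:**
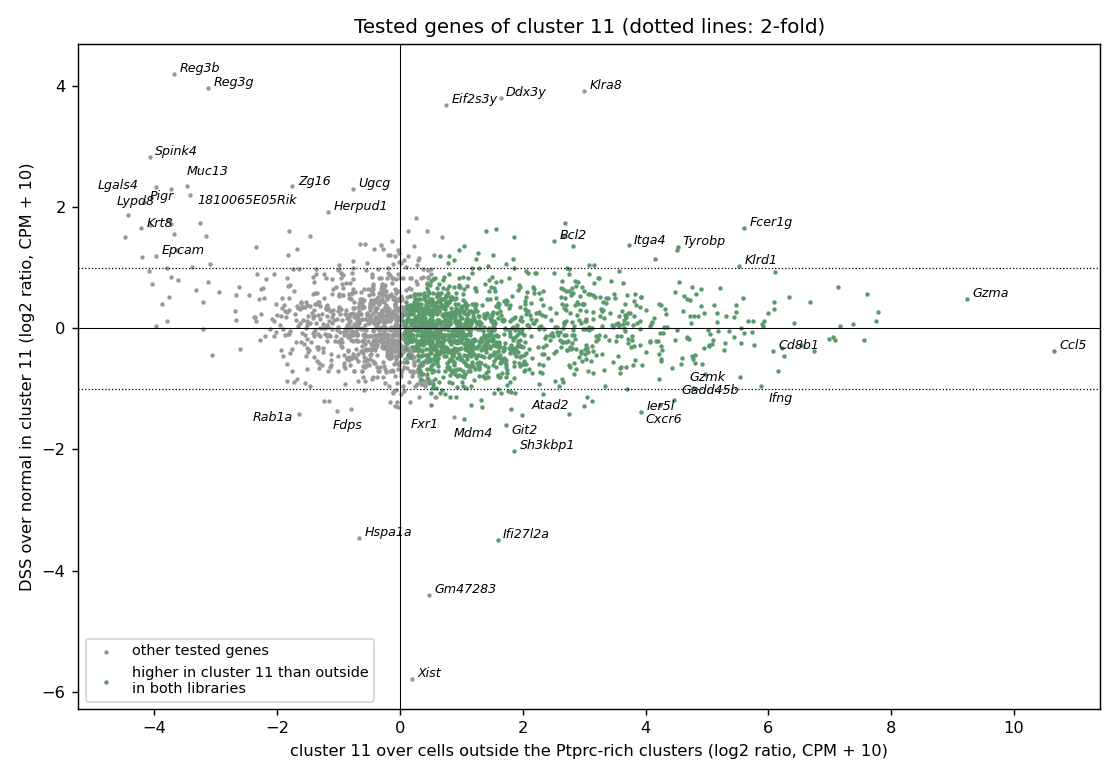
Log2 ratio of cluster 11 over the outside cells (x axis) and log2 ratio of DSS over normal in cluster 11 (y axis), both with 10 CPM added, for the 2374 genes with at least 20 UMIs. Each point is a gene, green points stood higher in cluster 11 than outside in both libraries, and 3.92% of the green points lay beyond 2-fold against 9.36% of the others. The colours rest on the same levels as the y axis, so these shares are a description.

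The granzymes did not move together. Gzma was higher in DSS, at 10111 against 7200 CPM, a ratio of 1.40 (1.31 to 1.51). In cluster 0 its ratio was 0.348, from 66 and 27 UMIs of which 1 normal cell gave 59.1% and 1 DSS cell 48.1%. Gzmb had a ratio of 1.21 (1.06 to 1.38). Gzmk was lower in DSS, at 335 against 593 CPM, a ratio of 0.565 (0.405 to 0.783), and 35 of 49 normal but 29 of 58 DSS cells held it. Nkg7, a membrane protein of cytotoxic granules, had a ratio of 1.49 (1.29 to 1.72) and Fasl, the ligand of the death receptor Fas, 1.58 (1.05 to 2.43). Of the 10 tested members of the cytotoxic granule list 0 passed 2-fold in either direction, which is near the 6.02% of all tested genes and no result about the list. Its median log2 ratio was 0.35 against 0.01 in cluster 0.

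Of the secreted signals, Ccl5, Ccl4 and Ifng stood lower and Xcl1 higher in DSS. Ccl5 had a ratio of 0.773 (0.745 to 0.802), and its log2 ratio was -0.37, beside -0.52 in cluster 0. Ccl4 had a ratio of 0.772 (0.642 to 0.927), and 1 normal cell gave 20.7% of its normal UMIs. It was held by 79.6% of normal and 79.3% of DSS cells, with medians of 3 and 2.5 UMIs per cell. Ifng had 137 UMIs in 29 normal cells and 77 UMIs in 24 DSS cells, a ratio of 0.512 (0.382 to 0.682). Xcl1 stood higher in DSS, with 22 and 62 UMIs and a ratio of 2.57 (1.56 to 4.39), and 1 DSS cell gave 24.2% of its UMIs.

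The NK receptor gene Klrd1 and the adaptor genes Fcer1g and Tyrobp stood higher in DSS. Fcer1g had 53 UMIs in 5 normal cells and 187 UMIs in 18 DSS cells, a ratio of 3.22 (2.36 to 4.45), beside a log2 ratio of 0.33 in cluster 0. Tyrobp had 27 UMIs in 3 and 78 UMIs in 10 cells, a ratio of 2.63 (1.68 to 4.24). Single cells weighed heavily, since 1 normal cell gave 41.5% of the normal Fcer1g and 1 gave 66.7% of the normal Tyrobp UMIs. Klrd1 had a ratio of 2.07 (1.48 to 2.92), and Cd7, a surface protein of T and NK cells, 1.6 (1.35 to 1.89). Klre1, another NK receptor gene, had 5 and 17 UMIs. Of the 14 tested members of the CD8 and cytotoxic list, Xcl1 and Klrd1 were past 2-fold, beside 6.02% of all tested genes, and a count this small is no result about the list. Its median log2 ratio was 0.55, and 0.12 in cluster 0.

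The share of cells with Cd8b1 differed between the libraries, so the ratios are also given within each kind of cell. Cells without a Cd8b1 UMI were 10 of 49 normal and 23 of 58 DSS cells. Among the cells with Cd8b1, Fcer1g had 1 UMI in each library and Klrd1 had 23 UMIs in each. Within these cells the log2 ratio was 0.31 for Klrd1, against 1.02 over the whole cluster, and 0.32 for Gzma, against 0.49. Gzmk (-0.32), Cd5 (-0.35) and Cd6 (-0.14) also stood nearer to 0 than over the whole cluster, where they were at -0.81, -0.85 and -0.76. The intervals of the ratios of Gzmk, Cd5, Cd6 and Klrd1 within the cells with Cd8b1 included 1. Those of Klrd1 (0.673 to 2.34), Gzmk (0.547 to 1.16) and Cd5 (0.428 to 1.38) also included the ratio over the whole cluster. Nkg7 (0.63), Ccl5 (-0.42), Ccl4 (-0.52) and Ifng (-0.97) differed within these cells by at least as much as over the whole cluster. For Ccl4, 1 normal cell gave 54 of the 231 normal UMIs of the cells with Cd8b1. Itga4, Cxcr6, Ctla4, Bcl2, Gadd45b and Lgals1 are given within each kind of cell below. The cells without Cd8b1 differed between the libraries as well. In them the log2 ratio was 0.70 for Fcer1g (ratio interval 1.19 to 2.26). The log2 ratios of Gzmk (-1.90, ratio interval 0.120 to 0.529) and Cd6 (-3.52, ratio interval 0.001 to 0.365) differed by more than over the whole cluster. Xcl1 had a log2 ratio of 2.46 (ratio interval 1.93 to 30.6) in them, from 3 normal and 40 DSS UMIs. The interval of the Gzma ratio (0.850 to 1.03) included 1. Ccl4 (0.49, ratio interval 0.925 to 2.20) and Ifng (0.23, ratio interval 0.552 to 2.75) had log2 ratios above 0 in them, opposite to the cells with Cd8b1. Ccl3, a chemokine related to Ccl4, had a log2 ratio of -2.20 (ratio interval 0.097 to 0.387) in the cells with Cd8b1. In the cells without Cd8b1 its log2 ratio was 2.89 (ratio interval 2.66 to 40.9), where the normal library had 3 UMIs. Of all Ccl3 UMIs of the cluster, 1 normal cell gave 38.0% of the normal and 1 DSS cell 26.2% of the DSS ones. How far the makeup of the cluster contributes to these differences was not tested.

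Of the tested genes of adhesion, homing and costimulation or inhibition, 1 of 12, 1 of 4 and 1 of 9 were past 2-fold, beside 6.02% of all tested genes, and counts this small are no result about the lists. Itga4, the alpha chain of integrins that bind the vascular addressins of gut and inflamed tissue, had 11 UMIs in 9 normal and 34 UMIs in 23 DSS cells, a ratio of 2.82 (1.39 to 6.16). Its partner Itgb7 had a ratio of 1.42 (1.05 to 1.95), and Itgae, the integrin chain that anchors lymphocytes to epithelial cadherin, 1.5 (1.00 to 2.29). Itga4 was the 1 of 12 tested integrin and adhesion genes past 2-fold. Cxcr6, a chemokine receptor of tissue-resident T cells, was lower, with 46 UMIs in 26 normal and 20 UMIs in 14 DSS cells, a ratio of 0.396 (0.222 to 0.683). It was the 1 of 4 tested homing receptors past 2-fold. Ctla4, an inhibitory receptor, had 48 and 84 UMIs, a ratio of 1.6 (1.11 to 2.32). Cd69, an early activation and residency marker, had a ratio of 1.43 (1.14 to 1.80) beside a log2 ratio of -0.17 in cluster 0. Tnfrsf9, a costimulatory receptor and the 1 of 9 past 2-fold, had 15 and 5 UMIs. Itgb7, Itgae, Ctla4 and Cd69 were within the limit.

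Of the 7 tested genes of apoptosis and survival, Bcl2 was higher and Gadd45b lower past 2-fold, beside 6.02% of all tested genes. Bcl2, an inhibitor of apoptosis, had 9 and 30 UMIs, a ratio of 3.04 (1.41 to 7.27), and 1.92 in cluster 0. Gadd45b, a stress-induced gene of growth arrest, was at 1274 CPM in the normal and 556 CPM in the DSS cells, a ratio of 0.437 (0.342 to 0.555). Lgals1, a secreted galectin of activated T cells, was at 438 and 216 CPM, and its log2 ratio of -0.99 did not reach the limit. In the cells with Cd8b1 the log2 ratios were 2.22 for Bcl2 (3 and 15 UMIs), -1.24 for Gadd45b and -1.46 for Lgals1. In the cells without Cd8b1 they were 0.18, -0.83 and 0.64, and the intervals of Bcl2 and Lgals1 included 1. Of 22 tested genes of immediate early response and dissociation stress, Atf3 was higher and Hspa1a lower past 2-fold, which is near the 6.02% of all tested genes. The list median of -0.19 turned to 0.48 with the methods' filter and to 0.40 in the cells without Cd8b1. Hspa1a, a heat shock gene with a near-identical copy, had 57 UMIs in 12 normal and 4 UMIs in 2 DSS cells, and its log2 ratio was -3.46, beside -2.60 in cluster 0 and -2.75 in the outside cells.

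Ifi27l2a, an interferon-induced gene, had 171 UMIs in 37 normal cells and 15 UMIs in 10 DSS cells, a ratio of 0.080 (0.044 to 0.136). Its log2 ratio was -3.49 in cluster 11, -1.41 in cluster 0 and -4.05 in the outside cells, so the lower level was not particular to the cluster. It belonged to none of the fixed lists tested here. Of the 10 tested members of the interferon response list, 0 passed 2-fold, where 6.02% of all tested genes did, so this count and the next ones are near the background. The median log2 ratio of the list was -0.30 beside -0.31 in cluster 0 and -0.87 in the outside cells, and it turned to 0.24 in the cells without Cd8b1. Among the 15 tested MHC class I genes 0 passed 2-fold, with a median of -0.17. The same held for 14 tested genes of T cell receptor signalling, 12 pan-leukocyte genes and 15 T cell genes, whose medians were 0.00, 0.03 and -0.25.

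The remaining genes with the largest differences were of varied function. Ugcg, which encodes the enzyme that makes glucosylceramide, had 2 UMIs in 2 normal and 18 UMIs in 10 DSS cells, a ratio of 8.20 (1.96 to 72.9). Herpud1, a gene of the endoplasmic reticulum stress response, had 5 and 26 UMIs, with a ratio of 4.74 (1.79 to 15.8). Lower in DSS were Sh3kbp1, an X-linked gene (log2 ratio -2.02), Git2 (-1.60), Mdm4 (-1.5), Fxr1 (-1.46), Atad2 (-1.43), Rab1a (-1.42), Ier5l (-1.38) and Fdps (-1.36). With the methods' filter of 1500 genes, the log2 ratio of Fxr1 turned to 1.19. Xist and genes annotated on the Y chromosome completed the list. Xist had 91 UMIs in the normal and 0 in the DSS cells and Gm47283, a gene model annotated on the Y chromosome (chrY:90784738-90816464, plus strand), 34 and 0. Ddx3y and Eif2s3y had 0 UMIs in the normal and 24 and 22 UMIs in the DSS cells. Against a floor of 3 UMIs, Xist was at least 33.3-fold and Gm47283 at least 12.4-fold lower in DSS, and Ddx3y at least 7.29-fold and Eif2s3y at least 6.68-fold higher. Whether the Gm47283 reads come from a copy elsewhere in the genome was not tested, so it is no check of the Y chromosome.

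**Figure D5:**
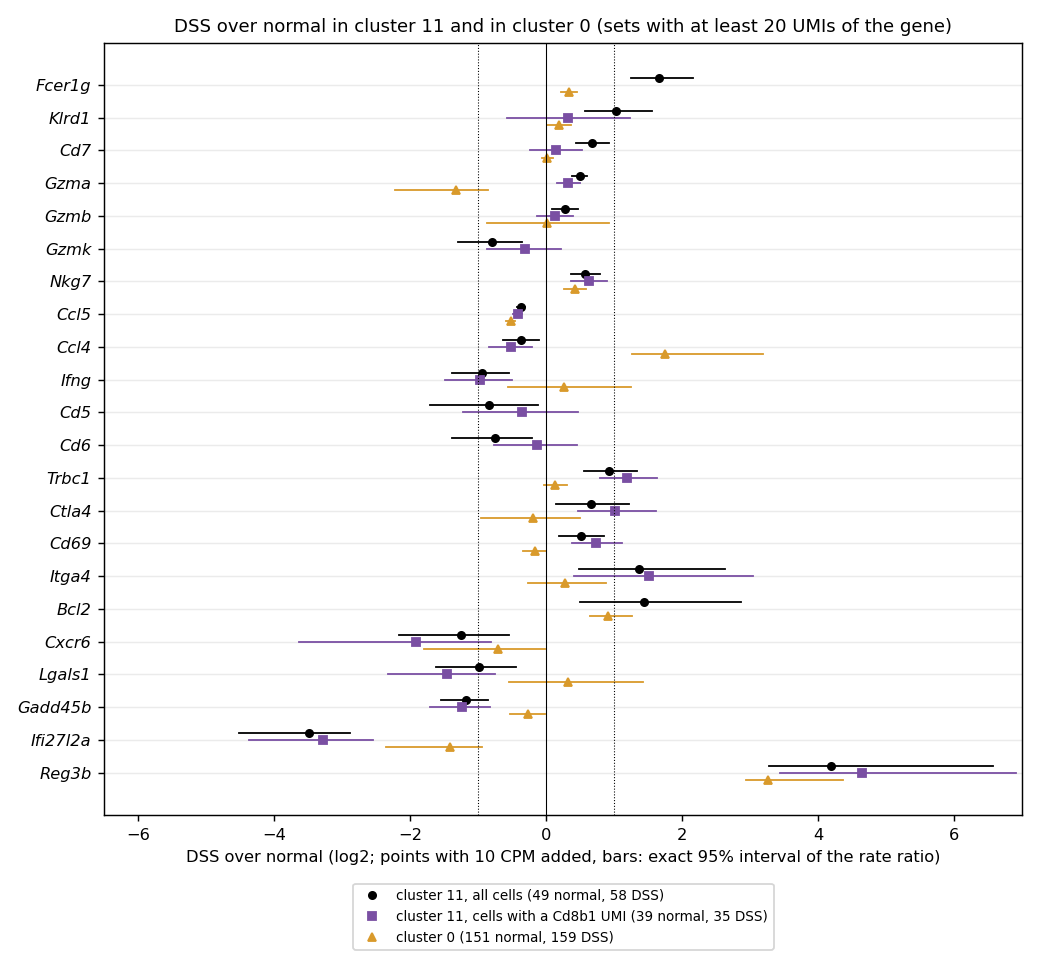
Log2 ratio of DSS over normal (x axis, 10 CPM added) for 22 genes in all cells of cluster 11 (black circles), in its cells with a Cd8b1 UMI (purple squares) and in cluster 0 (orange triangles), with the exact 95% interval of the ratio of CPM as bars and the 2-fold limits as dotted lines. Only sets with at least 20 UMIs of the gene are drawn, and reads of Trbc1 cannot be told from those of its near-identical copy Trbc2 with confidence. Ifi27l2a and Reg3b lay furthest from 0 in cluster 11, and Klrd1 lay near 0 in its cells with Cd8b1.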

How the data were processed

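The authors aligned and counted the reads against mm10 with Cell Ranger, for which the submitters' notes name version 3.0.0 and the matrix headers 3.1.0, and clustered cells with Seurat 3.1.4. The deposited values are UMI counts per gene and barcode, not normalized. By the study's methods a cell needed 1500 genes or more and no more than 25% of mitochondrial reads, but most cells of cluster 11 had fewer genes. The authors' kept cells were used as deposited. The deposited annotation gave the cluster numbers. Columns of per-sample values left unmapped numbered 0.

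UMIs were summed per set of cells and library and divided by the set's total (168747 normal and 185142 DSS UMIs in cluster 11). Levels have exact Poisson, shares exact Clopper-Pearson and ratios of CPM exact conditional binomial intervals at 95%. PCR and cell-to-cell spread are not covered. Log2 ratios have 10 CPM added. Doublets were scored with Scrublet in scanpy 1.11.5 and none were removed. Scripts ran in Python 3.11.15 with numpy 2.4.6, scipy 1.17.1 and pandas 2.3.3, and were tested on simulated data. Coordinates come from GENCODE for GRCm38, in which 60 of 60 identifiers were found.

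The members and the 51 gene lists were chosen with earlier results of these data known. Named genes were list members held by at least 20% of cells in either library and defining members of absent types, the 15 highest over the outside cells and the 10 highest and 10 lowest over cluster 0 (held by at least 25% of cells, ranked by the smaller of the 2 libraries' ratios), and the 12 largest and 12 smallest ratios of DSS over normal (at least 20 UMIs, at least 8 cells, and at most 25% of UMIs from 1 cell). Genes outside this rule, such as Klra8, Lgals1 and those of the Cd8b1 comparison, were named after their values were seen. Alternatives were other pseudocounts, UMI minimums, filters on cells and thinning.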

Additional observations from a re-analysis of the deposited data

Results flagged for a closer look

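Among the named and listed genes with at least 20 UMIs, 5 had ratios of DSS over normal in opposite directions in cluster 11 and cluster 0 with both counting intervals clear of 1. Log2 ratios are given here. Other genes, not listed here, also had opposite directions in the 2 clusters. The difference between the clusters was not tested, since each condition is 1 library. Gzma was at 0.49 in cluster 11 and -1.32 in cluster 0, where it had 66 and 27 UMIs. Ccl4 was at -0.37 in cluster 11 and 1.75 in cluster 0, where it had 12 and 63 UMIs and 1 DSS cell gave 54.0% of the 63. In cluster 11, 1 normal cell gave 20.7% of the normal Ccl4 UMIs. Cd69 was at 0.51 and -0.17, and Nfkbia, an inhibitor of NF-kappaB, at 0.44 and -0.35. Ugcg was at 2.29 and -0.72, with 2 normal and 18 DSS UMIs in cluster 11.

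A few DSS barcodes that the authors did not keep held UMIs of both Cd3 and Cd8b1. Among 2813 DSS barcodes not kept, 8 had UMIs of Cd3 and of Cd8b1 (0.284%, 0.123 to 0.560), against 0 of 2495 normal barcodes. A Cd3 UMI was found in 86 DSS and 44 normal barcodes not kept, and a Cd8b1 UMI in 9 and 3. Whether the 8 barcodes are cells of the kind of cluster 11 was not tested. The 8 barcodes had a median of 1458 UMIs, 714 genes and 34.0% mitochondrial UMIs, and 7 of them had over 20% mitochondrial UMIs. No kept cell of either colonic library had over 20%, although the methods state a limit of 25%.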

How the results depend on the processing

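No paired analysis was possible because each condition is 1 library, and no library could be left out in turn. The filter of the methods (at least 1500 genes and at most 25% mitochondrial UMIs) left 10 normal and 16 DSS cells of cluster 11, or 1.19% and 1.14% of the 841 and 1400 cells passing it. With it Ptprc was held by 100% of DSS cells, Cd8b1 by 60.0% and 37.5% and Fcer1g by 40.0% and 62.5% of normal and DSS cells, 48 genes were higher and 38 lower of 871 tested (10 and 8 of them also past 2-fold over all cells), the stress list median was 0.48 and Fxr1 reversed to 1.19. Without cluster 11 cells holding Epcam, the DSS share was 1.52%, and 45 genes were higher and 57 lower of 1520 tested. Of these, 23 and 23 were also past 2-fold over all cells. Higher genes were 44.1% of those past 2-fold, against 62.9%. Thinning to 2000 UMIs gave Ptprc in 70.2% of normal and 90.6% of DSS cells and a pan-epithelial median of 1.09. After it 66 genes were higher and 47 lower of 1405 tested, and 32 and 15 of them were also past 2-fold over all cells.

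Counts of genes past 2-fold followed the settings. Adding 1 CPM gave 119 higher and 83 lower, and adding 50 CPM 34 and 10. A minimum of 5 UMIs gave 501 and 388, with a pan-epithelial median of 1.14, and one of 100 UMIs 9 and 2. Restricting to the genes higher than outside gave 27 and 30. Cells with Cd8b1 gave 59 higher and 58 lower, and cells without it 78 and 30, with medians of 0.24 for the interferon, 1.11 for the pan-epithelial and 0.40 for the stress list. These last 3 restrictions, and the filters applied to the makeup, were chosen after the data were seen. Why these values moved was not tested. Of 712 alternative values of 62 named genes, 667 moved by less than counting error, 44 by more, and 1 reversed. Reversed here means a change of sign in a gene past 2-fold over all cells. The cells without Cd8b1 were not among these alternatives. Changing the UMI minimum cannot move the ratio of a gene. Leaving out the cells with the highest doublet scores removed 0 cells of the cluster. Both settings are counted. Of the 39 named genes past 2-fold, 28 were past it under all settings of pseudocount, UMI minimum, scaling, cell filter and thinning, leaving aside the addition of 50 CPM and the Cd8b1 restrictions. The number past it was 31 on adding 50 CPM, 32 with the methods' filter, 34 without cells holding Epcam, 36 after thinning, 36 in cells with Cd8b1 and 26 in cells without it. The 158 further list genes were within 2-fold over all cells and so could not be called reversed. Of their 1809 values, 1759 moved by less than counting error and 50 by more. Depth limited genes with few UMIs, whose intervals are wide.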

Other observations

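Klra8, an NK receptor gene of the Ly49 family, had 0 UMIs in the normal and 26 UMIs in the DSS cells of cluster 11, and all 26 came from 2 cells. Tcrg-C1, a constant gene of the T cell receptor gamma chain with near-identical copies, was held by 14 normal and 12 DSS cells, and 10 of these 26 cells also held Cd8b1. Of the 74 cells with Cd8b1, 39 held Tcrg-C2 and 31 held Tcrg-C4.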
